A study of Mus musculus with 28 samples.

Results

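The adult heart of mice with Sepsecs Y334C and Gpx4 U/C was compared with that of control mice at postnatal day 75, in 5 mutant and 3 control libraries out of the 28 of the series, which also holds adult cortex and newborn tissues. The libraries were taken by their label for tissue, age and Gpx4 genotype, and each is 1 mouse per the series' design text. SEPSECS (selenocysteine synthase) carries a human missense mutation here, and U/C names the selenocysteine and cysteine forms of the lipid peroxidase GPX4. The design text gives the mutants both alleles and calls the other mice Ctl. The sample labels spell the genotypes Gxp4 MT and Gxp4 WT, on C57BL/6J, and do not state the Sepsecs genotype of the controls. The groups therefore differ in the Gpx4 allele and, as far as the design text goes, in Sepsecs, and the parts of the 2 alleles cannot be told apart. No adult group carries one allele alone. Whether the U/C mice keep a selenocysteine copy of GPX4 in every cell is not given in the labels.

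Selenoproteins hold selenocysteine at their reactive site. The amino acid is made on its own tRNA by SEPSECS and is inserted at a UGA codon, which otherwise ends translation. When selenocysteine is scarce, ribosomes stop at this codon, and some selenoprotein mRNAs, among them Selenoh, Selenow and Gpx1, are known to be degraded through nonsense-mediated decay, while others are spared. GPX4 reduces lipid peroxides in membranes and so holds back ferroptosis, an iron-dependent cell death, and its cysteine form needs no selenium. The transcription factor NRF2 drives genes for glutathione synthesis and conjugation, quinone reduction and thioredoxin, and is held in check by KEAP1, a sensor of oxidants and electrophiles. It binds the antioxidant response element in their promoters.

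The UGA codon is shown for the 5 mRNAs of the selenium-sensitive list (Selenoh, Selenow, Gpx1, Gpx3 and Msrb1) and for Gpx4, since the first result below is a selenoprotein mRNA. Each run has 27 bases of the mRNA as DNA letters, 5′ to 3′, with the selenocysteine codon in capitals and 12 bases on each side, from GENCODE M21 on GRCm38.
Selenoh: cattgtacgagcTGAcgcgtgtacggc
Selenow: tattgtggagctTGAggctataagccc
Gpx1: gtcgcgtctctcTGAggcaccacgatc
Gpx3: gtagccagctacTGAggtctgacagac
Msrb1: caatcaagattcTGAatatttagcagc
Gpx4: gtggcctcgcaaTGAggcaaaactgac
The codons lie at chr2:84670381-84670383 (minus strand) for Selenoh, chr7:15920464-15920466 (minus) for Selenow, chr9:108339451-108339453 (plus) for Gpx1, chr11:54907256-54907258 (plus) for Gpx3, chr17:24740158-24740160 (plus) for Msrb1 and chr10:80054737-80054739 (plus) for Gpx4. In all 6 transcripts an exon junction follows the codon. The last junction is 136 bases downstream in Selenoh, 243 in Selenow, 105 in Gpx1, 240 in Gpx3, 34 in Msrb1 and 342 in Gpx4.

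Promoters of 3 genes of glutathione and redox metabolism are shown because genes of the NRF2 list are among those with the smallest p below and these 3 promoters hold the core of the antioxidant response element. Gclm is the regulatory subunit of the enzyme that starts glutathione synthesis, Pir encodes the redox-sensitive nuclear protein pirin, and Txnrd1 encodes the cytosolic thioredoxin reductase, itself a selenoprotein. The motif searched was TGACNNNGC on both strands of the RefSeq promoters of GRCm38.p6, which run from 250 bases before to 50 after each start. The 250 bases before the start are printed 5′ to 3′ on the gene's strand, with the motif in capitals on whichever strand it reads.
Gclm: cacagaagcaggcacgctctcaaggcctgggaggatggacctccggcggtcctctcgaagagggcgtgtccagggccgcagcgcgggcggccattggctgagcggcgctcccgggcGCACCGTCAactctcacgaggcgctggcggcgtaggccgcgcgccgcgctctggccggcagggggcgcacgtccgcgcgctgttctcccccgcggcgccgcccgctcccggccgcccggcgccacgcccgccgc
Pir: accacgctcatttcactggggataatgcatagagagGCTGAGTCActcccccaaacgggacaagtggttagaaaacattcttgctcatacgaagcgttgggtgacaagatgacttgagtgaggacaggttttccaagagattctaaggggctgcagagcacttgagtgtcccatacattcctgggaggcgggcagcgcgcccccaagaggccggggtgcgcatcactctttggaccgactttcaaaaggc
Txnrd1: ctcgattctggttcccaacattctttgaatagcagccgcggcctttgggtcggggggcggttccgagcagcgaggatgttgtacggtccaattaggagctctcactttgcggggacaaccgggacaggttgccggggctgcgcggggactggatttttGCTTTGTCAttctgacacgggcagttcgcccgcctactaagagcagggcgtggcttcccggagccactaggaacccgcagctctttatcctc
These are chr3:122245307-122245556 (plus) for Gclm, chrX:164269181-164269430 (plus) for Pir and chr10:82858956-82859205 (plus) for Txnrd1, which has other starts as well. The motif begins 134 bases before the start in Gclm, 214 in Pir and 92 in Txnrd1, each time on the opposite strand. Of the 32 genes on the NRF2 target list, 28 had a promoter in the table and 10 of these (35.7%) held the motif in at least 1 promoter. The motif stood in 12.4% of all 32851 promoters of this length and, by gene, in 17.2% of the tested genes with a promoter. Of the 12 higher genes with the smallest p, 10 had a promoter and 4 held it, and of the 12 lower ones 9 had a promoter and 1 held it. These are counts of letters in a short window.

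Libraries held 4737953 to 8779631 counts. The 10 cardiomyocyte markers, such as the myosin Myh6 and the titin gene Ttn, summed to 66950 to 111900 CPM (the usual depth-scaled count, here with edgeR's TMM factors) in controls and 51170 to 83330 in mutants. Control 1, control 2 and mutant 2 had Ccdc36, a meiotic gene, at 357 to 537 CPM, while the other 5 libraries had 1.53 to 4.58 CPM. Among those 3 Ccdc36-high libraries the correlation of log2 CPM across genes was 0.885 to 0.926, against 0.952 to 0.978 among the other 5, and 1485 genes (12.1% of those tested) were higher and 1585 (12.9%) lower in all 3 than in all 5. The 3 are 2 controls and 1 mutant, so 1 control and 4 mutants lie outside this pattern. Control 1 also had 40.7% of its counts on mitochondrially encoded genes, against 17.8% to 29.1% elsewhere. By Xist and Ddx3y, control 1 and mutant 1 were female and the other 6 male.

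Of 12264 genes tested, Selenoh alone fell and Gsta2 alone rose in the mutant hearts (edgeR quasi-likelihood test, Benjamini-Hochberg adjusted p under 0.05). That is 1 gene in each direction, or 0.00815% of the genes tested each. At an unadjusted p under 0.05 there were 336 higher genes (2.74%) and 624 lower genes (5.09%). All 5 mutants lay above all 3 controls for 299 genes (2.44%) and below them for 306 (2.50%). The median log2 fold change over all tested genes was 0.0102. The number of genes past the threshold depended strongly on the setting: 25 passed once a term for the Ccdc36-high libraries entered the fit (15 higher, 10 lower), 13 with those libraries left out (1 higher, 12 lower), 96 by DESeq2 (40 higher, 56 lower) and 17 by limma-voom (8 higher, 9 lower). Without mutant 2, 10 genes passed, and without any one of the other 7 libraries none did, while 546 to 1736 genes then had an unadjusted p under 0.05.

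**Figure D1:**
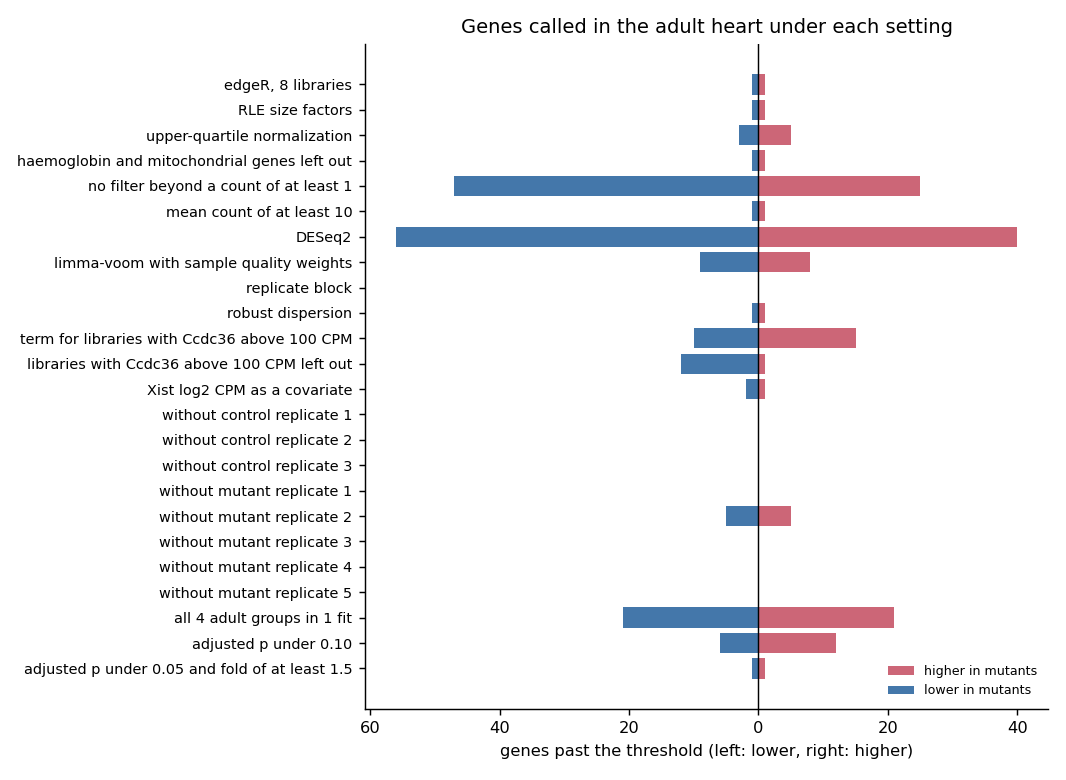
Number of genes past the threshold in the adult heart (x axis, lower in mutants to the left and higher to the right) under the reported edgeR fit of 8 libraries and each other setting (y axis). The reported fit has 1 gene on each side, DESeq2 has 40 higher and 56 lower, and 7 of the 8 fits that leave out a library have none.

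Selenoh encodes a nuclear selenoprotein with a thioredoxin-like fold (ENSMUSG00000076437, chr2:84669215-84670770 of GRCm38). Its mRNA was at 25.3, 15.9 and 16.2 CPM in controls 1 to 3 and at 3.76, 3.38, 2.50, 3.37 and 4.13 CPM in mutants 1 to 5. Every mutant lay far below every control. The means were 19.1 ± 5.31 (SD, n = 3) and 3.43 ± 0.605 CPM (n = 5), a log2 fold change of −2.47 ± 0.28 (SE, edgeR adjusted p = 0.0208). The counts behind these values were 86 to 117 in controls and 16 to 43 in mutants. The log2 fold change was −2.37 (adjusted p = 0.0162) with the term for the Ccdc36-high libraries and −2.24 (adjusted p = 0.0463) with 1 control and 4 mutants once they were left out. Leaving out single libraries gave −2.59 to −2.24, with adjusted p between 0.0213 and 0.1695, and only the fit without mutant 2 passed.

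Gsta2 encodes an alpha-class glutathione S-transferase, which joins glutathione to electrophiles such as products of lipid peroxidation (chr9:78331018-78355788). It was nearly absent from controls, at 0.432, 0.370 and 0.161 CPM or 1 to 2 counts each, and was at 13.2, 6.76, 25.5, 22.1 and 11.3 CPM in mutants, or 32 to 183 counts. The lowest mutant, mutant 2, was still far above the highest control. The log2 fold change was 5.59 ± 0.64 (edgeR adjusted p = 0.0208), 5.10 with the term for the Ccdc36-high libraries (adjusted p = 0.0162) and 6.64 with them left out (adjusted p = 0.0376). Leaving out single libraries gave 5.25 to 5.81 with adjusted p of 0.00519 to 0.213, past the threshold only without mutant 2, and limma-voom gave 5.600 with adjusted p = 0.292. The near-identical Gsta1 lies on the same chromosome, and the split of 3′ tags between the 2 genes is uncertain. Gsta1 had 2 counts over the 3 controls and 233 over the 5 mutants, a ratio of rates of 54.6 with a 95% exact counting interval of 15 to 454, and an edgeR adjusted p of 0.0795. That interval pools the counts of each group and leaves out the spread between mice. Both Gsta2 and Gsta1 met the filter on low counts only through the mutants.

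Of the 12 higher genes with the smallest p, which all had an adjusted p of 0.0933 or less, 6 were on the NRF2 target list, namely Gsta2, Gsta4, Gclm, Nqo1, Gstm1 and Gsta1. Gclm was at 14.9, 18.7 and 14.3 CPM in controls and at 57.0, 153, 105, 91.7 and 56.6 CPM in mutants. The groups did not overlap, and the highest mutant was the Ccdc36-high mutant 2. Its log2 fold change was 2.54 ± 0.39 (edgeR adjusted p = 0.0612), 2.78 with the term for the Ccdc36-high libraries (adjusted p = 0.0156) and 2.42 with them left out (adjusted p = 0.102).

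Nqo1, a quinone reductase, was at 20.7, 21.6 and 30.2 CPM in controls and at 124, 127, 213, 184 and 69.7 CPM in mutants, again without overlap (log2 fold change 2.57 ± 0.39, edgeR adjusted p = 0.0612). Gsta4, the transferase that acts on the lipid peroxidation product 4-hydroxynonenal, was at 43.8, 22.4 and 49.7 CPM in controls and at 149, 198, 162, 221 and 153 CPM in mutants (2.19 ± 0.33, edgeR adjusted p = 0.0612). Gstm1, a mu-class transferase, was the most abundant of the 6, at 182, 94.9 and 160 CPM in controls and 621, 1075, 1433, 984 and 498 CPM in mutants (2.66 ± 0.43, edgeR adjusted p = 0.0785). All 3 genes had every mutant above every control and passed with the term for the Ccdc36-high libraries, with edgeR adjusted p of 0.0399 for Nqo1, 0.0293 for Gsta4 and 0.0409 for Gstm1. With those libraries left out, none of the 3 passed: the edgeR adjusted p was 0.354 for Nqo1, 0.102 for Gsta4 and 0.315 for Gstm1.

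Over the whole NRF2 list, 25 of the 30 tested members had a higher mean in mutants and 5 a lower one. One member (Gsta2) passed the threshold, 16 had an unadjusted p under 0.05 on the higher side and 0 on the lower side, against 2.74% and 5.09% of all genes, and 13 had all mutants above all controls, against 2.44%. Among these, Gsta2 and Gsta1 met the filter on low counts only through the mutants, with 1 to 2 and 0 to 2 counts in each control. Osgin1 was also low in controls, at 0.724 CPM on average. The counts of higher members therefore rest in part on that filter, and the list was chosen with earlier results of these data known. The median log2 fold change of the list was 0.81, with 0.0102 over all genes, and it was 0.97 with the term for the Ccdc36-high libraries and 0.88 with those libraries left out. The summed level of the list was 1175 to 1777 CPM in controls and 2357 to 4501 CPM in mutants. The number of members past the threshold was 6 with that term, 10 by DESeq2 and 5 by limma-voom, but 0 with the replicate block. Over all 12264 genes those fits called 15, 40, 8 and 0 genes higher. The number of members was 2 without mutant 2, where 5 genes were called higher in all, and 0 without any one of the other 7 libraries. The 5 members on the lower side, named after their values were seen, were Tkt, Hmox1, Cbr1, G6pdx and Gstp1. Their log2 fold changes were −2.02, −1.39, −0.24, −0.21 and −0.36, with overlapping groups and edgeR adjusted p of 0.659 to 0.911. On leaving out single libraries, the number on the higher side ran from 22 (8 lower) without mutant 2 and 23 (7 lower) without control 3 to all 30 without control 1, and the median from 0.775 to 1.03.

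The other 6 of those 12 higher genes were Pir, Ptgds, Calr3, Cdh4, Htatip2 and Gbe1. Pir, whose promoter is printed above, was at 1.30, 1.66 and 3.70 CPM in controls and at 16.0, 16.5, 17.1, 18.4 and 11.7 CPM in mutants (2.81 ± 0.39, edgeR adjusted p = 0.0531, 0.0227 with the term for the Ccdc36-high libraries and 0.103 with them left out). The 5 mutants lay close together and far from the controls. Htatip2, an oxidoreductase-like regulator of apoptosis and metastasis, was at 8.88 to 12.5 CPM in controls and 23.7 to 33.4 in mutants (1.44 ± 0.25, edgeR adjusted p = 0.0933). Gbe1, the glycogen branching enzyme, was at 35.7 to 63.3 and 145 to 239 CPM (1.82 ± 0.32, edgeR adjusted p = 0.0933). Ptgds, which makes prostaglandin D2, was at 265, 180 and 257 CPM in controls and 1039, 1531, 1049, 1095 and 671 CPM in mutants (2.20 ± 0.34, edgeR adjusted p = 0.0612, 0.0263 with the term and 0.133 with those libraries left out). Calr3, a calreticulin of the germ line, and Cdh4, a cadherin, were at 0.893 and 1.82 CPM on average in controls and at 7.73 and 10.8 CPM in mutants, and both had all mutants above all controls. Calr3 met the filter on low counts only through the mutants, with 2 to 9 counts in each control.

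**Figure D2:**
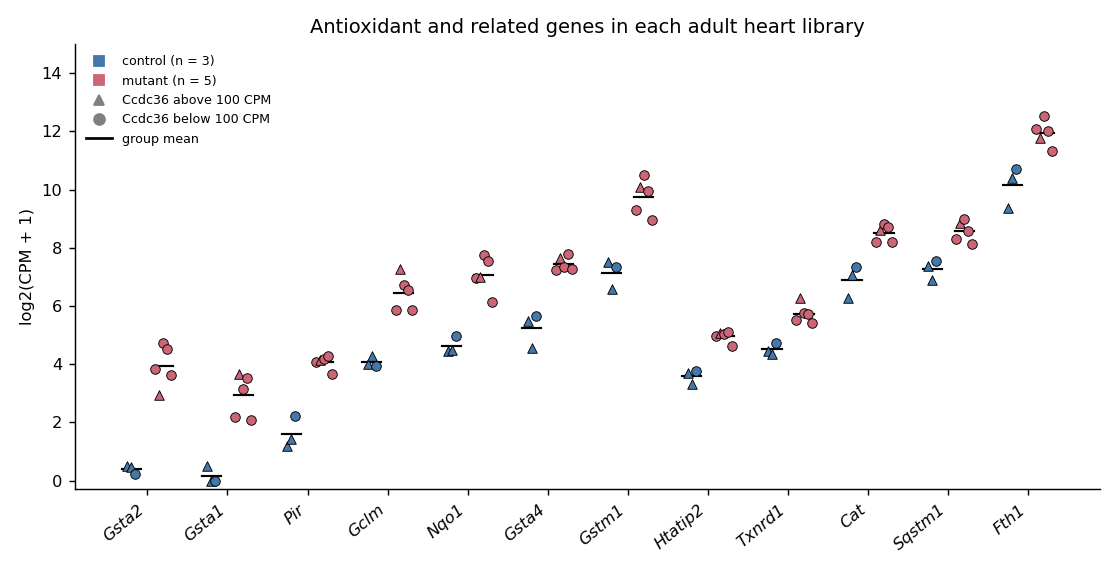
Level of 12 antioxidant and related genes in each adult heart library, as log2(CPM + 1) (y axis), with controls in blue, mutants in red, triangles for the 3 Ccdc36-high libraries and a line for each group's mean. The 12 genes were picked for display, and in each of them all 5 mutants lie above all 3 controls. Over the whole NRF2 list this held for 13 of the 30 tested members. Gsta2 and Gsta1 are near 0 in the controls. Of the 12 genes shown, only Gsta2 passed the threshold.

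Of the 24 tested enzymes that detoxify peroxides without selenium, 18 had a higher mean in mutants and 6 a lower one, and 0 passed the threshold. Cat, the catalase that splits hydrogen peroxide in peroxisomes, was at 76.0, 132 and 162 CPM in controls and at 295, 393, 455, 419 and 289 CPM in mutants, without overlap (log2 fold change 1.58 ± 0.33, edgeR adjusted p = 0.187; DESeq2 adjusted p = 0.000261). Prdx1, a thioredoxin-dependent peroxidase, Txn1, the thioredoxin itself, and Mgst1, a membrane-bound transferase, had log2 fold changes of 1.01, 0.58 and 1.47 with overlapping groups and edgeR adjusted p of 0.546, 0.648 and 0.473. On that list 3 had an unadjusted p under 0.05 on the higher side (2.74% of all genes) and 0 on the lower (5.09%), and the median was 0.29. With the Ccdc36-high libraries left out 14 were on the higher side and 10 on the lower, with a median of 0.036, and without mutant 2 alone 13 and 11, with a median of 0.16.

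The ferroptosis list, which joins iron storage, glutathione and lipid peroxide genes, had 20 of 27 tested members on the higher side. None passed, 7 had an unadjusted p under 0.05 on the higher side (2.74% of all genes) and 1 on the lower (5.09%), and 7 had all mutants above all controls (2.44%). Its median was 0.29, and on leaving out single libraries it ran from 0.20 without mutant 2 (17 higher, 10 lower) to 0.54 without control 3. The list shares Gclm and Nqo1 with the NRF2 list, so the 2 counts are not separate. Fth1, the ferritin heavy chain that stores iron, was at 653, 1344 and 1674 CPM in controls and at 4301, 3528, 5871, 4173 and 2547 CPM in mutants (1.74 ± 0.41, edgeR adjusted p = 0.28; DESeq2 adjusted p = 0.00126). Alox5, a lipoxygenase of white blood cells, was at 8.88 to 9.93 CPM in controls and 3.07 to 5.61 in mutants (−1.08 ± 0.30, edgeR adjusted p = 0.418). Among autophagy genes, Sqstm1, the p62 receptor that also binds KEAP1, was at 119 to 184 CPM in controls and 280 to 507 in mutants (1.31 ± 0.30, edgeR adjusted p = 0.266), and Bnip3, a mitophagy receptor, at 36.7 to 84.2 and 100 to 324 CPM (1.67 ± 0.43, edgeR adjusted p = 0.387). That list had 17 of 24 tested members on the higher side, 0 past the threshold and a median of 0.24. Without mutant 2 it had 12 members on each side and a median of 0.0059, and without control 1 or control 3 the median was 0.13 or 0.14. The cathepsin gene Ctsl had all mutants above all controls (1.13 ± 0.38, edgeR adjusted p = 0.506), while Gabarap had −1.03 ± 0.56 with control 1 at 955 CPM and the other 7 libraries at 143 to 340 CPM.

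Of the 24 selenoprotein genes 20 were tested, and Dio1, Dio3, Gpx2 and Selenov were left out by the filter on low counts. Of the 20, 11 were on the higher side and 9 on the lower, 1 passed (Selenoh), 3 in each direction had an unadjusted p under 0.05 (2.74% of all genes higher and 5.09% lower), and 2 in each direction had groups that did not overlap (2.44% above and 2.50% below). The median log2 fold change was 0.096, and −0.19 with the term for the Ccdc36-high libraries and −0.20 with them left out. Leaving out single libraries gave −0.077 (without mutant 1) to 0.088 (without control 3). Summed over the 24 genes, selenoprotein mRNA was at 1057 to 1278 CPM in controls and 876 to 1226 CPM in mutants.

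After Selenoh the next lower selenoprotein mRNA was Selenow, which encodes a small redox protein of muscle and brain. It was at 82.0, 34.4 and 58.8 CPM in controls and at 21.7, 9.72, 11.1, 16.2 and 23.9 CPM in mutants, so that the groups did not overlap. The log2 fold change was −1.81 ± 0.36, with an edgeR adjusted p of 0.171, a DESeq2 adjusted p of 0.00208 and an edgeR adjusted p of 0.0825 with the term for the Ccdc36-high libraries. Gpx1, the cytosolic glutathione peroxidase, was at 267, 213 and 111 CPM in controls and at 79.9, 218, 82.7, 52.9 and 61.1 CPM in mutants. The Ccdc36-high mutant 2 was inside the control range and the other 4 mutants were below it (−0.995 ± 0.469, edgeR adjusted p = 0.648). Gpx3, the secreted peroxidase, and Msrb1, a methionine sulfoxide reductase, had log2 fold changes of 0.38 ± 0.48 and 0.13 ± 0.29 with overlapping groups (edgeR adjusted p = 0.843 and 0.910). The 5 selenium-sensitive mRNAs thus had 1 that passed on the lower side (0.00815% of all genes). On that side 2 had an unadjusted p under 0.05 (5.09% of all genes). The median of the 5 was −0.995, which was −0.44 with the term, −0.70 without the Ccdc36-high libraries and −1.51 without mutant 2.

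On the higher side, Txnrd1 was at 20.9, 19.6 and 25.5 CPM in controls and at 45.3, 75.9, 53.6, 51.3 and 41.4 CPM in mutants (1.28 ± 0.27, edgeR adjusted p = 0.202; DESeq2 adjusted p = 0.00274). It is on the NRF2 list as well as among the selenoproteins. Selenoo, a mitochondrial pseudokinase, was at 6.26 to 10.9 CPM in controls and 12.1 to 23.2 CPM in mutants (1.07 ± 0.31, edgeR adjusted p = 0.471). Neither group pair overlapped.

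**Figure D3:**
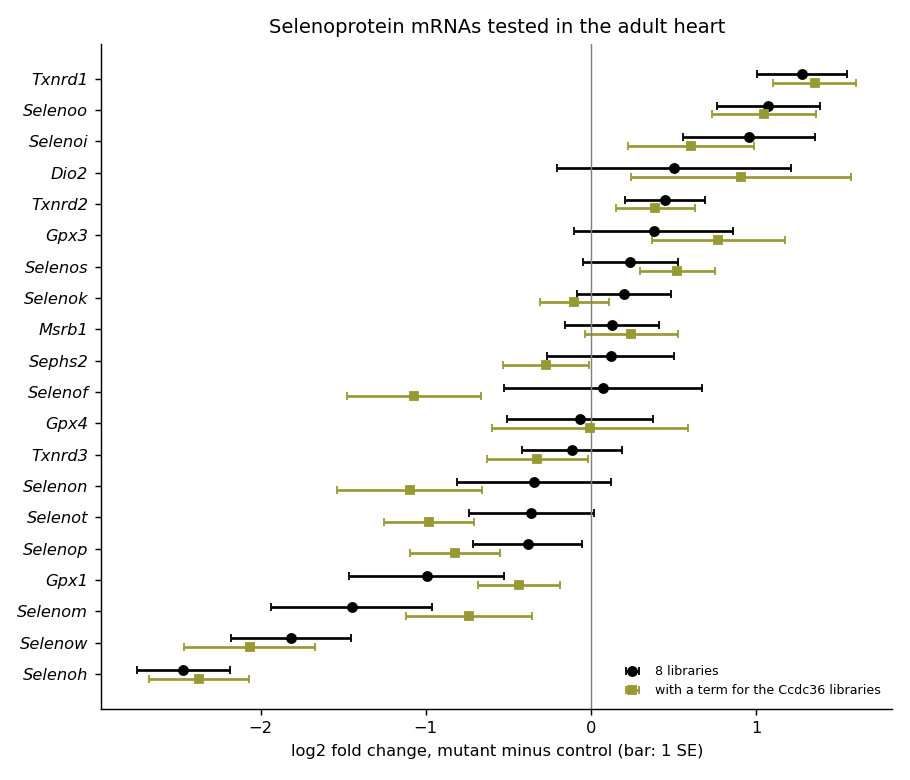
Log2 fold change (x axis, mutant minus control, bar 1 SE) of the 20 tested selenoprotein mRNAs (y axis) in the reported fit of 8 libraries (black circles) and with a term for the 3 Ccdc36-high libraries (squares). Selenoh (−2.47) and Selenow (−1.81) lie at the lower end and Txnrd1 (1.28) and Selenoo (1.07) at the upper end in the reported fit, with Gpx4 near 0.

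Neither allele gene passed. Sepsecs was at 4.53, 6.29 and 7.71 CPM in controls and at 6.87, 1.90, 4.45, 5.61 and 7.88 CPM in mutants (−0.20 ± 0.42, edgeR adjusted p = 0.904). Gpx4 was at 33.0, 10.4 and 9.96 CPM in controls and at 23.05, 10.4, 16.0, 22.8 and 12.3 CPM in mutants (−0.07 ± 0.44, edgeR adjusted p = 0.971), and its direction turned under 7 of 21 other settings, Sepsecs under 2. A base substitution in either gene would not be seen in a count per gene, so these values do not check the genotype labels. Of the 15 tested genes of selenocysteine synthesis and insertion, 9 were on the higher side and 6 on the lower, 0 passed, and 0 had an unadjusted p under 0.05 or groups without overlap. The median of that list was 0.12, and −0.0075 without mutant 1 to 0.36 without control 3. Its 4 members with the smallest p were Ncl, a nucleolin that binds selenoprotein mRNAs (−0.55 ± 0.30), Trnau1ap, a partner of the selenocysteine tRNA (0.57 ± 0.33), Scly, a selenocysteine lyase (0.46 ± 0.29), and Secisbp2, which binds the insertion element (0.36 ± 0.24), all with an edgeR adjusted p of 0.675 or more.

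The 12 lower genes with the smallest p were Selenoh and Ift122, Pcdh17, Nrep, Nes, Pclaf, Col5a3, Bcl6b, Top2a, Nrp2, Plxnd1 and Ip6k3, and the last 11 had groups that did not overlap and edgeR adjusted p of 0.0612 to 0.169. Bcl6b, an endothelial transcription repressor, was at 33.2, 29.2 and 32.5 CPM in controls and at 6.37, 17.1, 6.401, 8.50 and 7.49 CPM in mutants, with the Ccdc36-high mutant 2 the highest mutant (−1.80 ± 0.34, edgeR adjusted p = 0.148). Nrp2, a co-receptor for vascular growth factors and semaphorins, was at 37.6, 60.1 and 59.3 CPM in controls and at 24.03, 17.1, 23.2, 21.0 and 24.7 CPM in mutants (−1.25 ± 0.24, edgeR adjusted p = 0.169, 0.0409 with the term for the Ccdc36-high libraries and 0.0463 with them left out). Plxnd1, a semaphorin receptor of endothelium, was at 42.7 to 101 CPM in controls and 14.2 to 29.4 in mutants (−1.68 ± 0.33, edgeR adjusted p = 0.169).

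Nrep, a small protein of wound fibroblasts and neurons, was at 36.1, 38.5 and 53.8 CPM in controls and at 12.4, 5.71, 10.3, 13.6 and 15.9 CPM in mutants (−1.88 ± 0.31, edgeR adjusted p = 0.0823, 0.0121 with the term for the Ccdc36-high libraries and 0.0138 with them left out). Nes, the intermediate filament nestin of vessel walls and progenitors, was at 19.4 to 23.5 and 7.06 to 9.72 CPM (−1.30 ± 0.23, edgeR adjusted p = 0.0933). Pcdh17, a protocadherin, was at 19.6 to 26.5 and 5.50 to 10.3 CPM, and Ift122, of ciliary transport, at 19.8 to 45.3 and 3.48 to 9.51 CPM, with edgeR adjusted p of 0.0811 and 0.0612. Both passed with the term, at 0.0277 and 0.0335, and neither with those libraries left out, at 0.0658 and 0.125.

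With the term for the Ccdc36-high libraries in the fit, 3 more lower genes stood out by the naming rule. Apln, the peptide hormone apelin of vessels and heart, was at 16.8, 13.9 and 27.2 CPM in controls and at 5.23, 0.211, 1.81, 4.65 and 3.84 CPM in mutants. The groups did not overlap, and the log2 fold change was −3.44 with the term (edgeR adjusted p = 0.0293) and −2.59 ± 0.57 without it (edgeR adjusted p = 0.227). Fscn1, an actin-bundling protein, and Trp53i11, a p53-induced gene, passed with the term as well, at edgeR adjusted p of 0.0334 each, and had −1.17 ± 0.32 and −1.32 ± 0.46 without it. Of the 16 endothelial markers, 6 were on the higher side and 10 on the lower, 0 passed, the median was −0.13 (−0.33 without mutant 2 and 0.00081 without mutant 5) and the summed level was 3244 to 4001 CPM in controls and 2466 to 4523 in mutants. Among them Kdr, the main receptor for vascular growth factor, had −0.55 ± 0.25, Vwf 1.10 ± 0.45, Tie1 −1.21 ± 0.44 and Cldn5 −1.89 ± 0.81, with overlapping groups and edgeR adjusted p of 0.559 to 0.636. Tie1 and Cldn5 were highest in control 1, at 117 and 135 CPM. In whole tissue, fewer cells of a type and less RNA per cell cannot be told apart.

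Interferon-stimulated genes lay on the lower side with few exceptions. Of 32 tested, 29 had a lower mean in mutants and 3 a higher one. None passed by edgeR, while 14 had an unadjusted p under 0.05 on the lower side (5.09% of all genes) and 8 had all mutants below all controls (2.50% of all genes). DESeq2 called 5 of them lower, with 56 of all 12264 genes called lower in that fit, and limma-voom called 0 of them. The median was −0.58, and −0.71 with the term for the Ccdc36-high libraries and −0.53 without them. Ifi44 was at 7.77, 7.21 and 12.1 CPM in controls and at 3.27, 1.69, 3.90, 1.76 and 3.07 CPM in mutants (−1.70 ± 0.37, edgeR adjusted p = 0.214). Rsad2, the antiviral enzyme viperin, was at 94.8, 76.6 and 57.0 CPM in controls and at 16.5, 46.7, 32.6, 23.3 and 18.7 CPM in mutants (−1.47 ± 0.35, edgeR adjusted p = 0.286). Isg15, the ubiquitin-like modifier, was at 70.0, 6.29 and 10.1 CPM in controls and 2.09 to 4.90 CPM in mutants, and Bst2, the virus tether, at 434, 32.2 and 12.5 and 8.83 to 20.9 CPM. Control 1 was the highest library in both. The log2 fold change of Isg15 was −2.95 with all libraries and −1.17 without control 1, and that of Bst2 was −3.72 and −0.92. MHC class II genes had 6 of 6 tested on the lower side with a median of −0.71 and class I genes 8 of 10 with a median of −0.37, 0 past the threshold in either. The 16 macrophage markers had 13 on the lower side and a median of −0.35, with a summed level of 502 to 1326 CPM in controls and 395 to 876 CPM in mutants, and their part in the immune lists was not tested.

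Cell-cycle mRNAs were scarce in these adult hearts, at 114 to 136 CPM summed over 27 genes in controls and 65.5 to 88.2 CPM in mutants. Of the 15 that could be tested, 12 were on the lower side, 0 passed, 5 had an unadjusted p under 0.05 (5.09% of all genes on the lower side) and 3 had groups without overlap (2.50% below), all lower, and the median was −0.54. It was −0.81 over 17 genes without control 1. Top2a, the topoisomerase of dividing cells, was at 12.5, 12.6 and 4.98 CPM in controls and at 1.14, 2.75, 2.09, 0.481 and 0.673 CPM in mutants (−2.84 ± 0.54, edgeR adjusted p = 0.166). Pclaf, a clamp-binding protein of replication, was at 5.83, 3.14 and 1.77 CPM in controls and at 0 to 0.480 CPM in mutants (−3.74 ± 0.66, edgeR adjusted p = 0.103). It met the filter on low counts only through the controls, with 11 to 27 counts against 0 to 5 in mutants. The counts of lower members above therefore rest in part on that filter. Birc5 (survivin) had −2.15 ± 0.61, and the replication helicase genes Mcm3 and Mcm5 had −0.97 ± 0.38 and −1.10 ± 0.44 with overlapping groups.

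No list of heart muscle genes had a member past the threshold. The 27 sarcomere genes had a median of −0.12, the 25 tested genes of fatty acid oxidation 0.027, the 37 of complex I −0.20 and the 10 cardiomyocyte markers −0.21, which was −0.0012 without control 1 and −0.11 without mutant 5. Titin (Ttn) was at 3189 to 3825 CPM in controls and 1915 to 3075 in mutants (−0.54 ± 0.28, edgeR adjusted p = 0.674), and Myh6, Mb (myoglobin) and Tnni3 (troponin I) had −0.57, −0.63 and −0.52 with overlapping groups and their highest value in control 1. Of 21 calcium-handling genes, 12 were on the lower side, 0 passed, and 4 had all mutants below all controls (2.50% of all genes) and 1 all above (2.44%). Their median was −0.29, and −0.19 and −0.18 without mutant 4 and mutant 5. Cacna2d1, a subunit of the L-type calcium channel, was at 236, 191 and 138 CPM in controls and 99.2, 115, 107, 121 and 101 CPM in mutants (−0.79 ± 0.24, edgeR adjusted p = 0.485). Hrc and Asph, both of the sarcoplasmic reticulum, had −0.87 ± 0.32 and −0.68 ± 0.27, and Cacna1c, the pore of that channel, had 0.68 ± 0.25 (edgeR adjusted p of 0.565, 0.601 and 0.573).

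The hypertrophy and stress list had 13 of 19 tested members on the higher side, 0 past the threshold and a median of 0.44, which was 0.195 without mutant 5. Uchl1, a ubiquitin hydrolase seen in stressed myocytes, was at 23.5, 13.1 and 18.0 CPM in controls and at 31.1, 42.1, 38.1, 34.2 and 37.3 CPM in mutants (1.00 ± 0.26, edgeR adjusted p = 0.364; DESeq2 adjusted p = 0.0345). Myh7, the fetal myosin of mouse ventricle, was at 14.9 to 27.4 and 22.96 to 67.0 CPM with overlap (1.18 ± 0.38, edgeR adjusted p = 0.488), and Xirp2 had −0.69 ± 0.27. Glucocorticoid-responsive genes had 19 of 20 tested on the higher side, 0 past the threshold, 3 with an unadjusted p under 0.05, all higher (2.74% of all genes), and a median of 0.59. Without mutant 2 there were 13 on the higher side and 7 on the lower, with a median of 0.31, and the median was 0.39 without control 1, 1.12 without control 2 and 0.38 without control 3. The cardiac circadian regulator Klf15 was at 13.4, 32.0 and 27.5 CPM in controls and 78.5, 73.6, 57.6, 68.0 and 38.2 CPM in mutants (1.38 ± 0.35, edgeR adjusted p = 0.364). The metallothionein Mt1 (1.49 ± 0.62) and Lcn2 (1.85 ± 0.78), an iron carrier of neutrophils and epithelia, were highest in mutant 2, and Angptl4, the 1 member on the lower side, had −0.91 ± 0.43, with edgeR adjusted p of 0.620 to 0.650.

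**Figure D4:**
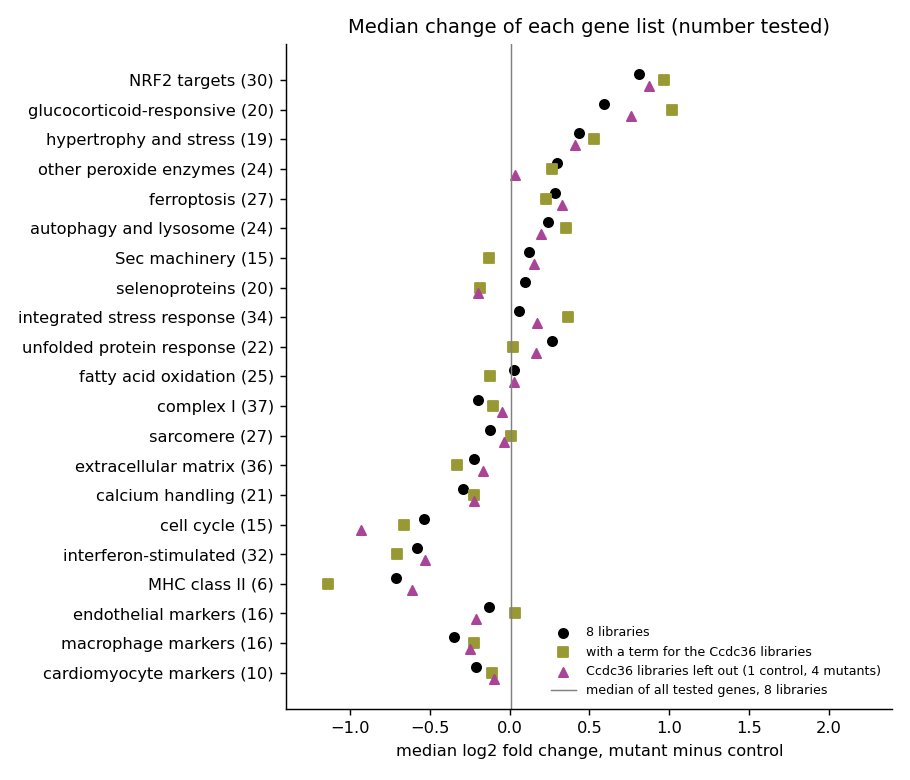
Median log2 fold change (x axis, mutant minus control) of 21 gene lists with the number of tested genes in brackets (y axis), in the reported fit (circles), with a term for the 3 Ccdc36-high libraries (squares) and with those libraries left out (triangles). The NRF2 list is at 0.81, 0.97 and 0.88 and the interferon list at −0.58, −0.71 and −0.53, while the selenoproteins are at 0.096, −0.19 and −0.20.

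Genes of the atria and of the airway lining varied between libraries, and the part of other tissue in this was not tested. Nppa, the atrial natriuretic peptide, was at 272, 3475 and 171 CPM in controls and at 5045, 3968, 274, 640.1 and 9084 CPM in mutants, and Bmp10, a growth factor of the right atrium, had 2 counts over the 3 controls while mutants 1, 2 and 5 had it at 70.3, 22.4 and 198 CPM and mutants 3 and 4 at 0 and 0.802. Dkk3 and Stard10 were highest in control 2 and mutants 1, 2 and 5. The 10 atrial markers summed to 344 to 5027 CPM in controls and 416 to 13910 CPM in mutants, with 8 on the higher side, 0 past the threshold and a median of 1.59, which was 4.52 with the Ccdc36-high libraries left out, 1.02 without control 1, 4.26 without control 2, 1.05 without control 3 and 0.89 without mutant 5. The 10 lung and airway markers summed to 2.59 to 9.07 CPM in controls and 5.72 to 1253 CPM in mutants. In mutant 2 the club cell secretoglobin Scgb1a1 was at 589 CPM, Scgb3a1 at 469 and Bpifa1, a secreted protein of the airway lining, at 465, while the other 4 mutants had 1.96 to 43.2, 0.802 to 2.02 and 0.321 to 2.11 CPM. Scgb3a1 and Bpifa1 passed with the term for the Ccdc36-high libraries (edgeR adjusted p of 0.0162 and 0.0121), so that fit calls genes that 1 library carries. The surfactant gene Sftpa1 had 1 count over the controls and at most 9.51 CPM in mutants, and Napsa was at 1.11 to 6.05 CPM in all 8. In mutants 3 and 4 and controls 1 and 3, the 4 libraries with the lower Nppa, Gclm was at 105, 91.7, 14.9 and 14.3 CPM and Selenoh at 2.50, 3.37, 25.3 and 16.2 CPM. These libraries and both genes were picked after the values were seen, and control 1 is Ccdc36-high. The part of atrial tissue in Gclm and Selenoh was not tested.

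**Figure D5:**
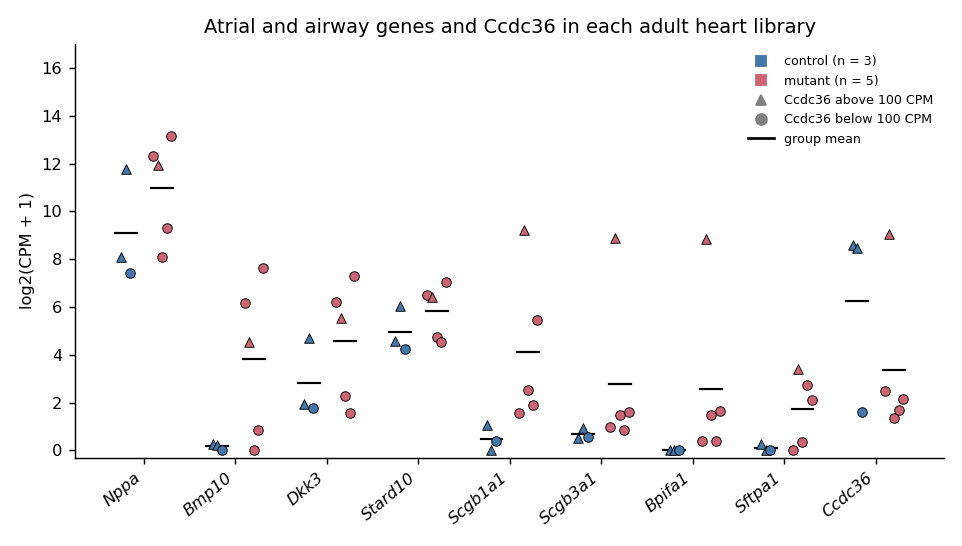
Atrial genes (Nppa, Bmp10, Dkk3, Stard10), airway genes (Scgb1a1, Scgb3a1, Bpifa1, Sftpa1) and Ccdc36 in each library, as log2(CPM + 1) (y axis), with controls in blue, mutants in red and triangles for the 3 Ccdc36-high libraries. Nppa, Dkk3 and Stard10 are highest in control 2 and mutants 1, 2 and 5, and mutant 2 stands apart at 589, 469 and 465 CPM for Scgb1a1, Scgb3a1 and Bpifa1.

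The same alleles were also present in adult cortex, with 3 control and 5 mutant libraries, and the difference between the 2 tissues was tested as an interaction over 16 libraries. The sample labels do not say whether heart and cortex came from the same mice. That fit treated the 16 libraries as independent, with no pairing by mouse. None of 14814 genes passed (0%, edgeR adjusted p under 0.05), with 945 at an unadjusted p under 0.05, while DESeq2 called 58, limma-voom 2 and edgeR 20 with the term for the Ccdc36-high libraries. Gclm had a log2 fold change of 2.54 ± 0.39 in heart and 0.14 ± 0.15 in cortex, a difference of 2.38 ± 0.41 (edgeR adjusted p = 0.111). Selenoh had −2.47 ± 0.28 in heart and −0.53 ± 0.18 in cortex, a difference of −1.94 ± 0.34 (edgeR adjusted p = 0.111). Selenow had −1.81 ± 0.36 in heart and −1.27 ± 0.30 in cortex, a difference of −0.54 ± 0.51 (edgeR adjusted p = 0.920). Nqo1, Gsta4, Gstm1 and Pir had 0.48, 0.39, 0.37 and −0.01 in cortex, with differences of 2.07, 1.79, 2.29 and 2.82 and edgeR adjusted p of 0.229, 0.216, 0.211 and 0.271. The interferon-stimulated Ifi44, Rsad2, Isg15 and Bst2 had 1.98, 1.28, 1.19 and 0.61 in cortex. Their differences were −3.68, −2.76, −4.13 and −4.33 (edgeR adjusted p of 0.167, 0.238, 0.276 and 0.349). Ift122 had 0.11 in cortex, a difference of −2.45 (edgeR adjusted p = 0.167). None of these differences between tissues is shown by the reported fit.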

How the data were processed

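Polyadenylated RNA of the heart was sequenced from its 3′ end (QuantSeq, TRIzol extraction per the labels' protocols). The authors deposited raw read counts per Ensembl gene, and the submitters' processing notes name STAR and GRCm38. For the counting tool and its use of strand, the sources used here give nothing. Each file has 55416 gene identifiers, of which 52083 matched a symbol. Counts were tested as deposited with edgeR 4.0.16 (R 4.3.3): filterByExpr, TMM scaling and the quasi-likelihood F test on 3 control and 5 mutant libraries with no covariate, with Benjamini-Hochberg adjustment over 12264 genes and a threshold of 0.05. SE is the log2 fold change over the square root of F. CPM is the count scaled to the TMM-adjusted library size, and 1 count was 0.114 to 0.211 CPM of a library's total, which limits what low genes can show. DESeq2 1.42.0, limma 3.58.1 (voom) and the other settings are given with the limits. The script was tested on simulated data. Newborn libraries were not used here.

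Genes were named by a rule: the 2 allele genes, the 5 selenium-sensitive mRNAs, the 12 with the smallest p in each direction, the 6 in each direction with a term for the Ccdc36-high libraries, and up to 4 members with the smallest p of each of 16 described lists. Clone-named and sex-linked genes were left out. There were 57 lists in all. The members and lists were chosen with earlier results of these data known. A count of genes without overlap needs all 5 mutants beyond all 3 controls. Promoters came from RefSeq and transcripts from GENCODE M21. The design text counts mice, and nothing says whether litters or preparation days were shared, so the p-values measure the spread between these libraries.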

Additional observations from a re-analysis of the deposited data

Results flagged for a closer look

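Among the 5 mutants, 11 of the 85 named genes had 1 library set apart by a gap of more than 0.71 of the group's whole range (Dixon's test), and in all 11 it was mutant 2, 1 of the 3 libraries with high Ccdc36. For independent, normally distributed values chance sets apart about 1 in 20 such groups. That rate does not hold here, since the genes were named from these same data, some of them through mutant 2. The airway genes were highest there: Scgb1a1 was at 589 CPM with 43.2 CPM next, Scgb3a1 at 469.1 CPM with 2.02 next, and Bpifa1 at 464.7 CPM with 2.11 next. Mutant 2 also had the highest Mt1 (2926 CPM, 844 next), Gabarap (340.4 CPM, 186 next), Gpx1 (218.2 CPM, 82.7 next), Cldn5 (44.61 CPM, 9.46 next), Lcn2 (21.35 CPM, 4.17 next), Bst2 (20.93 CPM, 10.7 next) and Bcl6b (17.12 CPM, 8.50 next). It had the lowest Mgst1, at 36.57 CPM with 88.2 next. Selenoh, Gsta2, Gclm, Nqo1 and Gsta4 were not among the 11.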

How the results depend on the processing

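Of 85 named genes, 77 kept their direction under all 21 other settings in which they were tested, and 44 passed in at least 1 of them. Most of the 85 were named for a small p in these same libraries, so both counts are in part built in. The same shares over all 12264 tested genes were not counted. Selenoh passed in 13 and Gsta2 in 12 of 21. Over the alternatives (edgeR, DESeq2 and limma) the adjusted p ran from 1.27e-09 to 0.638 for Selenoh, 7.35e-09 to 0.368 for Gsta2, 1.38e-07 to 0.638 for Gclm, 4.68e-08 to 0.368 for Nqo1, 1.36e-08 to 0.862 for Gsta4, 6.97e-08 to 0.679 for Gstm1, 7.35e-09 to 0.638 for Pir, 7.35e-09 to 0.679 for Ptgds, 2.96e-05 to 0.68 for Nrep, 0.00044 to 0.988 for Nrp2, 0.00398 to 0.988 for Apln, 0.00208 to 0.667 for Selenow, 0.00274 to 0.988 for Txnrd1, 0.00026 to 0.862 for Cat, 0.00126 to 0.988 for Fth1 and 0.0345 to 0.988 for Uchl1. With 2 genes called in the reported fit (1 higher, 1 lower), the count was 8 (5 and 3) with upper-quartile scaling, 72 (25 and 47) with no filter, 96 (40 and 56) by DESeq2, 17 (8 and 9) by limma-voom, 25 (15 and 10) with a term for the Ccdc36-high libraries, 13 (1 and 12) with those libraries left out, 42 (21 and 21) in 1 fit of all 4 adult groups and 18 (12 and 6) at an adjusted p under 0.10. With Xist as a covariate 2 genes were lower. Leaving out each library in turn gave 0 to 10 genes (0 to 5 higher and 0 to 5 lower). RLE scaling, haemoglobin and mitochondrial genes left out, a mean count of at least 10, robust dispersion and a fold of at least 1.5 gave the same counts as the reported fit. The replicate block gave 0 genes in all, 0 higher and 0 lower, with 2 residual degrees of freedom and 468 genes at an unadjusted p under 0.05. Same-numbered libraries deviated from their group means with correlations of −0.211, 0.229 and 0.353, and other pairs with −0.631 to 0.426. These values cannot show whether litters or preparation days were shared.

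For heart against cortex, with 0 genes in the reported fit, the count was 14 (2 higher, 12 lower) with no filter, 58 (15 and 43) by DESeq2, 2 (0 and 2) by limma-voom, 20 (4 and 16) with the term, 4 (0 and 4) with the Ccdc36-high libraries left out and 0 to 1 (0 to 1 lower) on leaving out single libraries. The replicate block gave 0 here too.

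The directions of 8 genes turned. Gpx4 had a log2 fold change of 0.63 by limma-voom, 0.048 with the replicate block, 0.87 with the Ccdc36-high libraries left out, 0.13 with Xist as a covariate, 0.71 without control 1, 0.06 without mutant 2 and 0.03 without mutant 5. Sepsecs had 0.0025 without control 3 and 0.00046 without mutant 2. By limma-voom Gpx3 had −0.077 and Napsa 0.22. With the Ccdc36-high libraries left out Ncl had 0.066, Gabarap 0.26 and Angptl4 0.28. Without control 1 Gabarap had 0.37, Tnni3 0.023 and Napsa 0.37. On leaving out single libraries the values ran from −0.35 to 0.71 for Gpx4, −0.40 to 0.0025 for Sepsecs, −1.44 to 0.37 for Gabarap, −0.81 to 0.023 for Tnni3 and −0.77 to 0.37 for Napsa. The cause was not tested. With 3 controls, of which 2 are Ccdc36-high, the comparison outside those libraries rests on 1 control, assumed to vary like the mutants.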
